A study of Mus musculus with 61 samples.

Results

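The BCL2 family was followed through 10 genes, taken by their symbols from the 24421 genes that the count files list. They were the survival genes Bcl2, Bcl2l1 (the gene of BCL-XL), Mcl1, Bcl2a1b and Bcl2a1d, the effector genes Bax and Bak1, and the BH3-only genes Bcl2l11 (the gene of BIM), Bbc3 (PUMA) and Pmaip1 (NOXA). All 10 passed the filter on low counts in every fit, so each had a value in all 22 comparisons.

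Proteins of this family set whether the outer membrane of mitochondria stays intact. BAX and BAK1 open pores in it, the survival proteins hold these effectors in check, and the BH3-only proteins bind the survival proteins and so release the effectors. In T cells, cytokines that signal through the common gamma chain and STAT5 are known to keep cells alive partly by way of BCL2 and MCL1, while BIM is known to drive the death of T cells when cytokine is withdrawn.

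The study asked what Y665F and Y665H, which replace the same tyrosine in the SH2 domain of STAT5B, do in T cells, beside N642H, a known activating mutation of the same domain found in blood cancers. RNA was sequenced in 61 libraries of C57BL/6 mice, 2 months old, in 17 groups. In the first experiment, 10 groups of 3 libraries held naive CD4+ T cells sorted from pooled lymph nodes and spleens, activated through the T cell receptor and CD28, transduced with a retroviral vector, kept in IL-2 for a further 48 h and sorted for the GFP of the vector. The vectors were empty (EV) or carried unmutated STAT5B, N642H, Y665F or Y665H, and each was put into WT cells and into Stat5a/b-null cells.

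The null cells came from floxed Stat5a/b mice with a Cre driven by Cd4, which acts in CD4 and CD8 cells from the double-positive stage of the thymus on, so that their other tissues kept Stat5. The genotype entry of the labels names floxed Stat5a/b in all 30 CD4+ libraries, those titled WT included, so the background was read from the titles. The second experiment held total T cells from spleens of WT mice and of mice with the Y665H or the Y665F mutation knocked into Stat5b, 4 libraries each after a culture of 24 h in IL-7 and IL-2, and 3 libraries of Y665F T cells without interleukin. The third held unstimulated spleens, 4 of WT, 5 of Y665H and 7 of Y665F mice. The last material is called T cells, splenocytes and spleen in different places, the labels do not give the zygosity of the knock-in mice, and nothing in them says which libraries came from separate animals, so the p-values measure the spread between libraries, which may be partly technical. For the CD4+ cells the study calls its RNA values those of independent biological replicates, without saying which animals each holds.

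The CD4+ libraries held from 18825994 to 49850689 reads on genes and the spleen libraries from 24203179 to 43330536. The splenic T cell libraries were shallower and less even, from 2017012 to 27394249 reads, and 3 of them held fewer than 5000000, which were replicates 1 and 2 of Y665H T cells and replicate 3 of Y665F T cells with interleukins. The last of these also had a summed level of 10 B cell markers of 837 CPM, the counts scaled to library size, and of an erythroid list of 1076 CPM, and the lowest T cell marker sum of the experiment, 1653 CPM. Among spleens, replicate 1 of Y665H stood apart from the other 4 of its group in its erythroid sum, 761 CPM against 3572 to 5090 CPM. The Stat5b check went with the labels of the CD4+ cells: Stat5b was lower in null EV than in WT EV cells by a log2 fold change of -5.12 ± 0.30 (SE, adjusted p = 3.6e-12), and the 4 constructs, whose inserts were counted as Stat5b, raised it by 5.19 to 5.75 in null cells.

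Positions are those of GRCm38, the mm10 build of the mouse. Of the survival genes, Bcl2 lies at chr1:106538178-106714274, Bcl2l1 at chr2:152780668-152831728 and Mcl1 at chr3:95658788-95663176. The Bcl2a1 genes are near-identical copies on chromosome 9, with Bcl2a1b at chr9:89199209-89207827 and Bcl2a1d at chr9:88723285-88731914. Bax lies at chr7:45461697-45466898, Bak1 at chr17:27019810-27029009, Bcl2l11 at chr2:128126038-128162547 and Bbc3 at chr7:16308393-16318205. Reads were summed over the whole gene, so the splice forms of Bcl2l1 and Bcl2l11, which are known to differ in activity, are not resolved. An annotated gene on the other strand covers 18.2% of the exon bases of Bak1 (Ggnbp1) and 6.1% of those of Bcl2, and genes on the same strand cover 12.2% of Bax and 49.1% of Bcl2a1b. Of these overlapping genes only Ggnbp1 is among the genes that the count files list. Whether counting used strand is not given in the sources used here.

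How alike the Bcl2a1 copies are limits what their counts can say, so the start of the coding sequence of each is shown, bases 1 to 30 of the GENCODE M21 transcripts on GRCm38, at chr9:89199360-89199389 on the plus strand for Bcl2a1b and at chr9:88731690-88731719 on the minus strand for Bcl2a1d. Capitals mark the 1 base that differs.
Bcl2a1b: atgGctgagtacgagttcatgtatatccac
Bcl2a1d: atgTctgagtacgagttcatgtatatccac

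Over their 516 coding bases Bcl2a1b and Bcl2a1d differ at 6, an identity of 98.8%, and 52.7% of the stretches of 50 bases in them are shared. Reads from such stretches cannot be placed on 1 copy, and the count files list reads with several alignments apart from the genes. The values of Bcl2a1b and Bcl2a1d are therefore uncertain as those of single copies, and a sum of the 4 annotated copies was tested beside them.

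In WT cells with EV, the levels per kilobase of exon were highest for Mcl1, at 100 ± 6.95 CPM per kb (SD, n = 3), and Bax, at 88.4 ± 18.5, and lowest for Pmaip1, at 6.83 ± 1.64. Bcl2 had rank 5 of the 10 there, at 47.3 ± 8.87 CPM per kb, and rank 9 in null cells with EV, at 16.1 ± 1.65. Bcl2a1b led in null cells with EV, at 125 ± 10.6 CPM per kb, with Mcl1 next at 116 ± 14.6, and these neighbours overlapped. The plot of levels by library shows the 10 genes in all CD4+ groups.

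**Figure D1:**
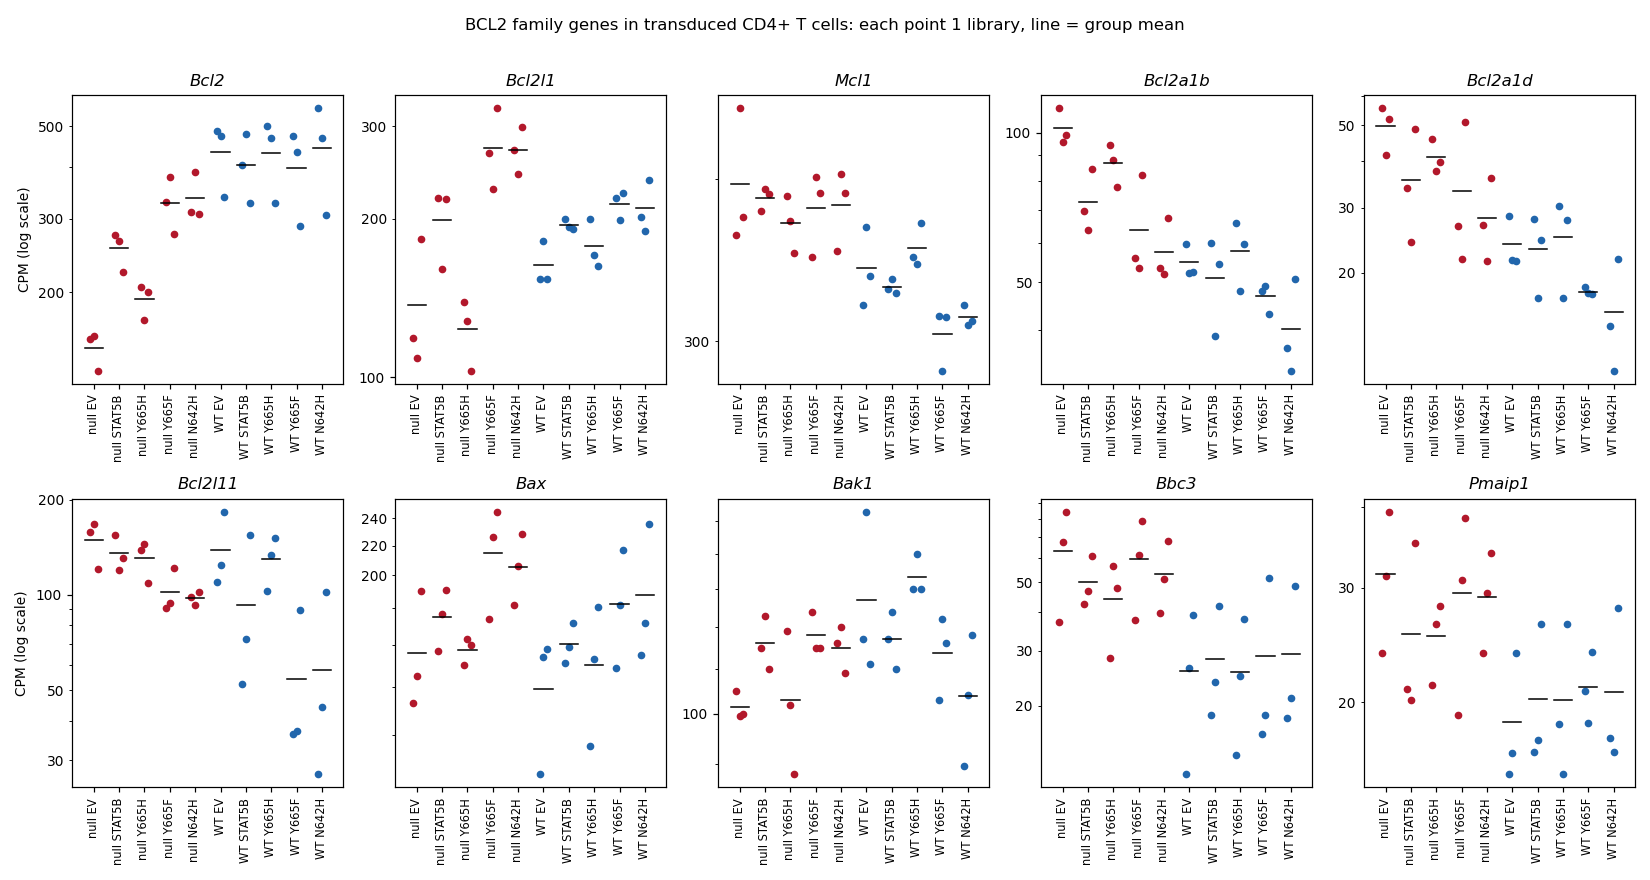
Levels of the 10 genes in CD4+ T cells in CPM on a log axis, with 1 point per library, a line at the group mean, Stat5a/b-null cells in red and WT cells in blue. Bcl2 sits between 130 and 157 CPM in null cells with EV and between 276 and 388 CPM with Y665F or N642H, while in WT cells its 5 groups overlap, and in null cells Bcl2a1b runs the opposite way to Bcl2.

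Null cells with EV held less Bcl2 than WT cells with EV and more of both Bcl2a1 copies. Bcl2 was at 155, 157 and 130 CPM in the 3 null EV libraries and at 487, 473 and 339 CPM in the 3 WT EV libraries, so every null library was below every WT library. Its log2 fold change, null against WT, was -1.56 ± 0.21 (SE, adjusted p = 7.26e-06, edgeR quasi-likelihood test), which is the steepest fall of the 10. Bcl2a1b, whose protein A1 protects activated lymphocytes, rose by 0.90 ± 0.17 (adjusted p = 0.000722), from 59.8, 52.2 and 52.4 CPM in WT to 112, 95.6 and 98.7 CPM in null cells. Bcl2a1d rose by 1.07 ± 0.28 (adjusted p = 0.0106), again with no overlap between the libraries.

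The other survival genes did not pass: Bcl2l1 differed by -0.25 ± 0.16 and Mcl1 by 0.21 ± 0.10, with adjusted p = 0.347 and 0.155. Among the death genes none passed. Bbc3, a target of p53 known to bind all survival proteins, came to 37.2, 67.2 and 84.4 CPM in null EV and to 12, 26.5 and 39.3 CPM in WT EV cells, a log2 fold change of 1.28 ± 0.46 with overlap between the groups (adjusted p = 0.062). Pmaip1, which lies on chromosome 18 and whose protein acts on MCL1 and A1, differed by 0.75 ± 0.26 (adjusted p = 0.0564) and Bak1 by -0.32 ± 0.12 (adjusted p = 0.0681). Bcl2l11 differed by 0.10 ± 0.36 and Bax by 0.16 ± 0.18.

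So 3 of the 10 passed at an adjusted p under 0.05, 2 higher and 1 lower, where 13.9% of all genes tested passed, 6.83% higher and 7.06% lower. By DESeq2, which called 29.7% of all genes here, 6 passed, with Mcl1, Bak1 and Pmaip1 added. By edgeR 5 passed when null EV replicate 1 was left out, with Bbc3 at 1.55 and Pmaip1 at 0.92 added (adjusted p = 0.0399 and 0.0363), or WT EV replicate 3, with both at 1.71 and 0.98 (adjusted p = 0.0258 and 0.0245), and Bcl2l1 passed without null EV replicate 3 (-0.52, adjusted p = 0.0332). The call of Bcl2a1d was lost without WT EV replicate 2, where it came to 1.00 with an adjusted p of 0.0629, whereas the copies summed rose by 0.95 (adjusted p = 0.00196). Of 12 T cell markers 5 were higher and 2 lower in null EV cells, with a median log2 fold change of 0.40 against -0.12 over all genes, and their part in the result was not tested. In bulk samples such as these, fewer cells of a type and less RNA per cell cannot be told apart.

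Putting unmutated STAT5B back into null cells raised Bcl2. The 3 libraries held 275, 266 and 224 CPM against 155, 157 and 130 with EV, with no overlap, and the log2 fold change was 0.78 ± 0.14 (adjusted p = 0.00722). None of the other 9 passed: Bcl2l1 differed by 0.53 ± 0.18 (adjusted p = 0.155) and Bcl2a1b by -0.50 ± 0.15 (adjusted p = 0.103), and Mcl1, Bax, Bak1, Bcl2l11, Bbc3, Pmaip1 and Bcl2a1d had adjusted p from 0.41 to 0.911. That made 1 of 10 where 1.52% of all genes passed, and none of 10 beyond a log2 fold change of 1, where 0.477% did. Null libraries of the same replicate number deviated together, and with the replicate as a block 4 of the 10 passed against 9.5% of all genes, with Bcl2l1 at 0.54 (adjusted p = 0.0187), Bcl2a1b at -0.51 (adjusted p = 0.0115) and Bcl2a1d at -0.54 (adjusted p = 0.0372) added. DESeq2, which called 11.6% of all genes, added Bcl2a1b (adjusted p = 0.0284), and leaving out STAT5B replicate 1 ended the call of Bcl2, at 0.72 with an adjusted p of 0.0593, while without EV replicate 3 Bcl2l1 passed as well (0.78, adjusted p = 0.0222).

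With STAT5B restored, Bcl2 was still at 224 to 275 CPM where WT EV cells held 339 to 487 CPM, again without overlap. That difference, -0.76 ± 0.20, missed the threshold in the fit of both backgrounds (adjusted p = 0.0633), and none of the 10 passed there, where 1.11% of all genes did. At an unadjusted p under 0.05 there were 4, beside 2095 of all 21975 genes. Bcl2 passed by DESeq2, with RLE size factors and without WT EV replicate 3 (-0.90, adjusted p = 0.0232).

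N642H changed 5 of the 10 in null cells, 2 higher and 3 lower, where 11.6% of all genes passed, 5.67% higher and 5.97% lower. Bcl2 rose most, to 312, 388 and 308 CPM from 155, 157 and 130, a log2 fold change of 1.16 ± 0.14 (adjusted p = 5.01e-05), and it was the only member to pass beyond a log2 fold change of 1, as 2.88% of all genes did. Bcl2l1 rose by 0.94 ± 0.18 (adjusted p = 0.00258), to 271, 243 and 299 CPM from 119, 109 and 183. Each N642H library was above each EV library for both genes.

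The other 3 fell in N642H cells. Bcl2a1b went to 53.4, 52 and 67.2 CPM from 112, 95.6 and 98.7, with no overlap, beside 52.2 to 59.8 CPM in WT cells with EV. Its log2 fold change was -0.87 ± 0.15 (adjusted p = 0.00116), and that of Bcl2a1d was -0.87 ± 0.27 (adjusted p = 0.0428), while the copies summed gave -0.87 (adjusted p = 0.00504). Bcl2l11, which encodes the death activator BIM, fell by 0.64 ± 0.15 on the log2 scale (adjusted p = 0.00752), from 158, 168 and 121 CPM with EV to 98.6, 92.8 and 102 CPM. Every N642H library lay below every EV library.

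Bax, an effector gene, had 0.36 ± 0.14 without the block (adjusted p = 0.126) and 0.37 with it (adjusted p = 0.00509), which made 6 of 10 against 20.5% of all genes. Bax also passed without EV replicate 3 (0.53, adjusted p = 0.0235). Scaling by RLE size factors ended the call of Bcl2a1d (adjusted p = 0.0559), which was also lost in 5 of the 6 fits that left out a library of these groups, all except that without N642H replicate 3, with adjusted p from 0.0566 to 0.187. Mcl1, Bak1, Bbc3 and Pmaip1 gave log2 fold changes from -0.29 to 0.15 and did not pass.

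Y665F was set against the same EV libraries as N642H, and the 4 members that passed were among the 5 of N642H and moved the same way. Bcl2 rose by 1.13 ± 0.14 (adjusted p = 8e-05), to 329, 379 and 276 CPM, and Bcl2l1 by 0.97 ± 0.18 (adjusted p = 0.00276), to 267, 228 and 325 CPM. Bcl2a1b fell by 0.71 ± 0.15 (adjusted p = 0.00598), to 55.8, 53.4 and 82 CPM. Bcl2l11 fell by 0.57 ± 0.15 (adjusted p = 0.0181), to 90.6, 94.5 and 122 CPM, of which the highest lay within the EV range of 121 to 168 CPM, while for the other 3 genes the groups did not overlap.

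Thus 4 of the 10 passed, 2 higher and 2 lower, where 9.58% of all genes did, 5.16% higher and 4.42% lower. Bcl2 alone passed beyond a log2 fold change of 1, where 2.37% of all genes did. The call of Bcl2l11 was the least firm, since leaving out EV replicate 1 or 2 or Y665F replicate 1 or 2 took its adjusted p to 0.0613, 0.103, 0.106 and 0.087. With the block 6 passed against 18.4% of all genes, with Bax at 0.43 (adjusted p = 0.00159) and Bcl2a1d at -0.69 (adjusted p = 0.00443) added. Without it Bax had 0.43 ± 0.14 (adjusted p = 0.0685; 0.035 by DESeq2) and Bcl2a1d -0.62 ± 0.27 (adjusted p = 0.169), but Bax passed without EV replicate 3 (0.61, adjusted p = 0.0129) or Y665F replicate 1 (0.56, adjusted p = 0.0337) and Bcl2a1d without Y665F replicate 3 (-1.08, adjusted p = 0.0077).

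Y665H moved none of the 10 past the threshold in null cells, where 0.0249% of all genes passed. Bcl2 was at 206, 172 and 201 CPM, above all 3 EV libraries and below all 3 STAT5B libraries. Its log2 fold change against EV was 0.41 ± 0.14, with an adjusted p of 0.896. Bcl2 was the only 1 of the 10 at an unadjusted p under 0.05, beside 1021 of all 20113 genes. DESeq2 called none of the 10, and 0.0696% of all genes. Bcl2l1 was at 139, 128 and 103 CPM against 119, 109 and 183 with EV, and the groups overlapped.

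Set directly against unmutated STAT5B in null cells, neither activating construct moved a member past the threshold. Bcl2 differed by 0.37 ± 0.14 with N642H and by 0.35 ± 0.14 with Y665F, Bcl2l1 by 0.41 ± 0.18 and 0.43 ± 0.18, and Bcl2l11 by -0.50 ± 0.15 and -0.43 ± 0.15, and the largest adjusted p of these was 0.971 and the smallest 0.434. By edgeR 0.0845% and 0.0199% of all genes passed. At an unadjusted p under 0.05 were 4 and 3 of the 10, beside 1221 and 1000 of all 20113 genes. None of the 10 passed by DESeq2 either, which called 0.884% and 0.476% of all genes. Y665H against STAT5B gave Bcl2l1 the largest difference, -0.67 ± 0.18, with 103 to 139 CPM against 161 to 219 CPM and no overlap (adjusted p = 0.16). It passed with the replicate block (-0.64, adjusted p = 0.0126, where 4.18% of all genes passed) and by DESeq2 (-0.65, adjusted p = 0.0343, where 3.75% did), so that 1 of 10 passed there. By edgeR without the block none of 10 passed, where 0.229% of all genes did. At an unadjusted p under 0.05 were 2 of the 10, beside 2126 of all 20113 genes. These comparisons share the STAT5B libraries.

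T cell markers moved with the constructs. Of the 12 in the list, 7 were lower and 2 higher with N642H than with EV in null cells, and the same counts held with Y665F, while none passed with STAT5B or Y665H. The summed level ran from 5079 to 5699 CPM with EV, from 4392 to 4776 with N642H and from 4429 to 4971 with Y665F. Over all genes 5.97% were lower and 5.67% higher with N642H, and 4.42% and 5.16% with Y665F. The part of these markers in the changes of the BCL2 family was not tested. B cell markers summed to 8.89 CPM or less in every CD4+ library and the 4 globin genes of the erythroid list were at 0 in all of them.

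**Figure D2:**
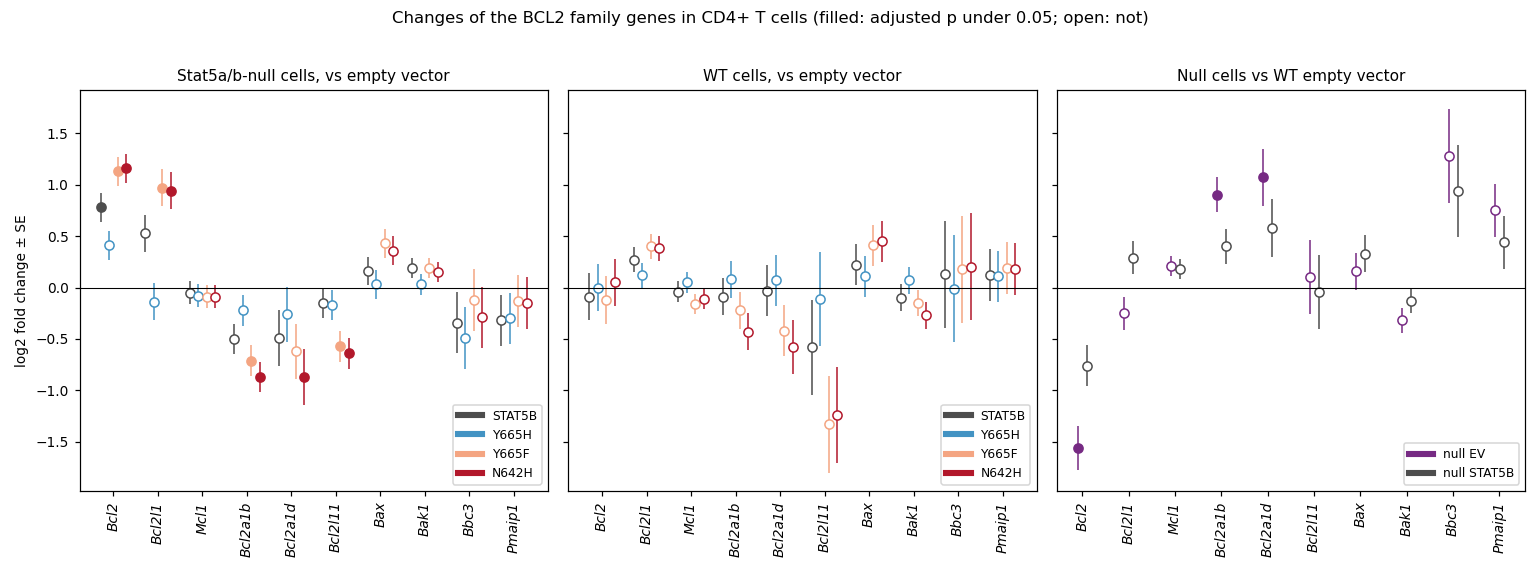
Log2 fold change ± SE of the 10 genes in CD4+ T cells, for the 4 constructs against EV in null cells, the same in WT cells, and null cells against WT cells with EV. Filled points had an adjusted p under 0.05. In null cells Bcl2 and Bcl2l1 lie near 1 with N642H and Y665F and the Bcl2a1 copies and Bcl2l11 below 0, and no point is filled in WT cells. The fits have no replicate block.

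In WT cells, which have their own Stat5a/b, no construct moved any of the 10 past the threshold in the fit without a replicate block. Calls over all genes made up 0.00975% for STAT5B, 1.52% for N642H, 1.26% for Y665F and 0.00488% for Y665H. Members at an unadjusted p under 0.05 came to 1, 6, 2 and 0, beside 555, 2164, 2932 and 163 of all 20509 genes. DESeq2 called Bcl2l1 with N642H (0.37, adjusted p = 0.0404) and with Y665F (0.40, adjusted p = 0.0184), where it called 5.74% and 7.09% of all genes, and none with STAT5B or Y665H. Most WT libraries of the same replicate number deviated together, though the labels give no pairing. With the replicate number as a block, Bcl2l1, Bcl2l11 and Bax passed with N642H and with Y665F. Bcl2a1b and Bcl2a1d passed with N642H too. Over all genes 8.28% passed with N642H and 12% with Y665F in the blocked fit. Bcl2 differed from WT EV by 0.05 ± 0.23 with N642H and by -0.12 ± 0.23 with Y665F, and its 3 libraries ran from 307 to 553 CPM and from 289 to 473 CPM, across the EV range.

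Bcl2l11 had the largest differences in WT cells. It was at 27.1, 44.3 and 102 CPM with N642H and at 36.2, 37 and 89.7 CPM with Y665F, against 110, 124 and 183 CPM with EV. Every library with an activating construct was thus below every EV library, but within each of the 3 groups replicate 3 was the highest. The log2 fold changes were -1.24 ± 0.47 (adjusted p = 0.3) and -1.33 ± 0.47 (adjusted p = 0.196). Without replicate 3 of N642H the first came to -1.94 (adjusted p = 0.0407), and without replicate 3 of Y665F the second to -1.94 (adjusted p = 0.0303). Those fits had no replicate block. With all libraries kept and the replicate number as a block, Bcl2l11 passed at -1.4 with N642H and at -1.45 with Y665F (adjusted p = 1.61e-05 and 1.35e-05). Unmutated STAT5B lay lower than EV as well, by -0.58 ± 0.46, and did not pass with or without the block. Its WT libraries held 52.1, 72.5 and 155 CPM, which overlapped EV, N642H and Y665F. In WT cells neither mutant was set against STAT5B, so whether the fall is particular to the activating constructs was not tested.

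The WT libraries showed such a shift by replicate number in several members. Replicate 3 had the lowest Bcl2 and the highest Bcl2l11, Bax, Bbc3 and Pmaip1 in all 5 groups, EV included, and replicate 1 the lowest Bcl2l11, Bax and Bbc3 in all 5. Null libraries showed another order, with the lowest Bax and Bbc3 in replicate 1, the lowest Bcl2a1d in replicate 2 and the highest Pmaip1 in replicate 3 in all 5 groups. The labels do not say what a replicate number marks.

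Whether the response of Bcl2 differed between backgrounds was tested directly by an interaction contrast. For Y665F the response in null cells exceeded that in WT cells by 1.28 ± 0.29 on the log2 scale (adjusted p = 0.0324), which made 1 of 10 where 0.478% of all genes passed. The call held in 3 of the 12 fits that left out 1 library, those without null Y665F replicate 3, WT EV replicate 3 and WT Y665F replicate 1, and the other 9 gave log2 values from 1.08 to 1.34 with adjusted p up to 0.139. For N642H the difference was 1.16 ± 0.29 (adjusted p = 0.0698), and none of the 10 passed where 0.387% of all genes did. At an unadjusted p under 0.05 were 3 of the 10, beside 2255 of all 21975 genes. Bcl2 passed by DESeq2 (adjusted p = 0.0053), with RLE size factors (adjusted p = 0.0496), and without WT EV replicate 3 (1.28, adjusted p = 0.035) or WT N642H replicate 1 (1.35, adjusted p = 0.044). Bcl2l1, whose responses were 0.94 and 0.97 in null cells and 0.38 and 0.40 in WT cells, gave 0.62 ± 0.23 and 0.60 ± 0.23 (adjusted p = 0.339 and 0.401). With a block of replicate number within each background, Bcl2 passed for N642H at 1.18 (adjusted p = 2.56e-06) and Bcl2l1 at 0.64 (adjusted p = 0.0437). There 4.36% of all genes passed. For Y665F the block added Bcl2l11, at 0.92 (adjusted p = 0.0272), where 4.11% of all genes passed. Both interactions share the EV libraries.

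Setting the survival gene Bcl2 against the death gene Bcl2l11 within each library removes the scaling between libraries. Null EV cells held from 0.934 to 1.07 reads of Bcl2 per read of Bcl2l11, Y665H cells from 1.19 to 1.84, STAT5B cells from 1.71 to 2.22, Y665F cells from 2.26 to 4.01 and N642H cells from 3.01 to 4.19. In this order EV and Y665H did not overlap, nor did STAT5B and Y665F, but Y665H overlapped STAT5B and Y665F overlapped N642H. WT EV cells held from 1.86 to 4.43 and WT cells with N642H from 3.01 to 20.4, with the lowest ratio of each in replicate 3. With N642H the median was 10.6, so the values above replicate 3 were spread as well.

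Other genes of the pathway were read against the same shares of all genes, 11.6% with N642H and 9.58% with Y665F. Of 16 further BCL2 family genes, 1 was lower with N642H in null cells and none higher, with a median log2 fold change of -0.35 against 0.01 over all genes. That gene was Bmf, a BH3-only gene known for its part in lymphocyte death, at -1.18 ± 0.31 (adjusted p = 0.017), and it was also the only one with Y665F, at -1.12 ± 0.31 (adjusted p = 0.0272). Of 27 genes of apoptosis beyond the family, 3 were higher and 2 lower with N642H, and 2 higher and 2 lower with Y665F, with medians of 0.03 and 0.11. Trp73, which encodes the p53 relative p73, rose by 3.54 ± 0.78 with N642H (adjusted p = 0.00601) and by 3.05 ± 0.78 with Y665F (adjusted p = 0.0187).

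In WT cells none of the 16 passed with any construct, and of the 27, 2 were higher with N642H and 2 higher and 1 lower with Y665F, where 1.52% and 1.26% of all genes passed. Trp73 rose there too, by 4.85 ± 0.85 with N642H (adjusted p = 0.00806) and by 4.52 ± 0.84 with Y665F (adjusted p = 0.0158), as did Cdkn1a, the gene of the cell cycle inhibitor p21, by 1.66 ± 0.30 and 1.38 ± 0.30 (adjusted p = 0.0103 and 0.0342). Between null and WT cells with EV, Bcl2l15 was higher by 2.04 ± 0.60 in null cells (adjusted p = 0.0205), 1 of the 16. Of the 27, 5 were higher and 2 lower in null cells, where 13.9% of all genes passed, among them the death receptor caspase Casp8 at -0.59 ± 0.15 (adjusted p = 0.00774).

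Splenic T cells held a different mix of the family. With both interleukins, WT T cells held Mcl1 at 602 ± 52.6 CPM per kb (SD, n = 4) and Bcl2 at 233 ± 33.1, and next came Bcl2l11 at 30.2 ± 5.83, whereas Bcl2l1 had rank 8 at 3.69 ± 1.19. The experiments were normalised apart, so these levels are set beside those of the CD4+ cells without a test. Counts of the low genes were small here: Bbc3 had from 3 to 167 reads per library and Bcl2l1 from 12 to 575.

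**Figure D3:**
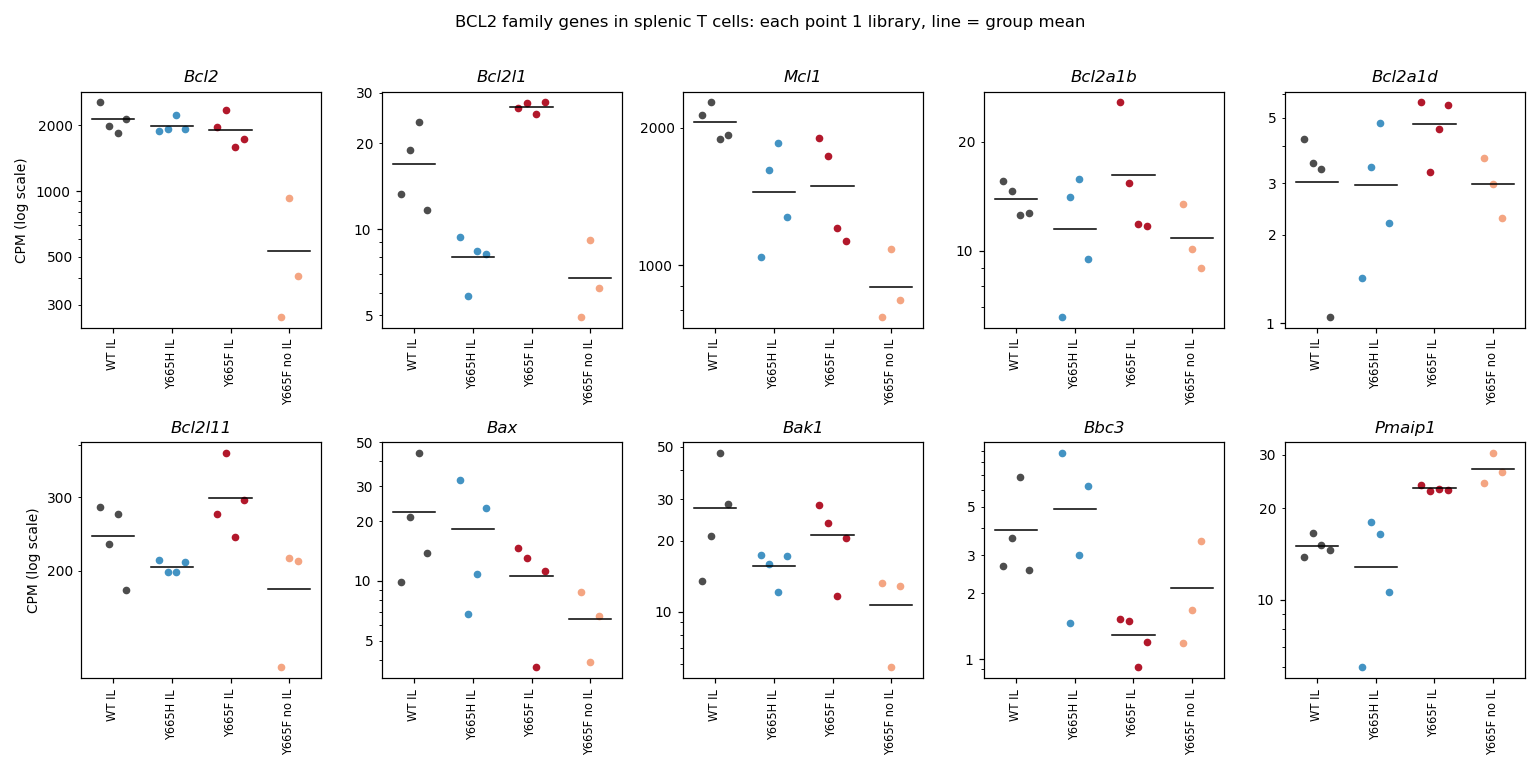
Levels of the 10 genes in splenic T cells in CPM on a log axis, with 1 point per library and a line at the group mean, for WT, Y665H and Y665F cells with IL-2 and IL-7 (IL) and Y665F cells without. Bcl2l1 lies between 25.3 and 27.8 CPM in Y665F cells with interleukins and between 5.83 and 9.42 CPM in Y665H cells.

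With interleukins, Bcl2l1 was the member with the smallest adjusted p between Y665F and Y665H T cells. It was at 26.6, 27.6, 25.3 and 27.8 CPM in Y665F, at 9.42, 5.83, 8.41 and 8.22 CPM in Y665H and at 13.3, 18.9, 23.7 and 11.7 CPM in WT T cells. Neither mutant group overlapped with WT or with the other. Between the mutants the log2 fold change was 1.73 ± 0.27 (adjusted p = 0.000424), and it held in all 8 fits that left out a library of these groups (1.63 to 1.83) and among libraries of at least 5000000 reads.

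Bbc3 and Pmaip1, both BH3-only genes, also passed between the mutants, and in opposite directions. Bbc3 was at 1.53, 1.49, 0.915 and 1.2 CPM in Y665F T cells and at 8.85, 1.46, 2.99 and 6.21 CPM in Y665H T cells, where 1 library fell within the Y665F range. Its log2 fold change was -1.88 ± 0.50 (adjusted p = 0.0256). Pmaip1 was at 23.9, 22.8, 23.2 and 23 CPM in Y665F and at 6, 18, 16.5 and 10.6 CPM in Y665H T cells, with no overlap, and its log2 fold change was 0.87 ± 0.26 (adjusted p = 0.0475).

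So 3 of the 10 passed between the mutants where 6.18% of all genes did. Bcl2l11 was added, higher in Y665F, with RLE size factors (0.59, adjusted p = 0.0384) and by DESeq2 (0.59, adjusted p = 0.0127), which called 16% of all genes. It passed in none of the 8 edgeR fits that left out a library (adjusted p from 0.0952 to 0.269). Bcl2l1 alone passed among libraries of at least 5000000 reads (Bbc3 -1.62, adjusted p = 0.15; Pmaip1 0.81, adjusted p = 0.2), and without Y665H replicate 1 (Bbc3 -1.44, Pmaip1 0.67), Y665H replicate 4 (Bbc3 -1.70, Pmaip1 0.82) or Y665F replicate 4 (Bbc3 -1.83, Pmaip1 0.87). The call of Pmaip1 was further lost without Y665F replicate 1, 2 or 3, with adjusted p from 0.0676 to 0.074.

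Against WT, none of the 10 passed in either mutant. With Y665F 1.87% of all genes passed, and 5 members were at an unadjusted p under 0.05, beside 4620 of all 22313 genes. DESeq2 called Bcl2l1, Bbc3 and Pmaip1, as it did 11.1% of all genes. The edgeR values of these were 0.66 ± 0.25 (adjusted p = 0.152), -1.56 ± 0.48 (adjusted p = 0.091) and 0.63 ± 0.25 (adjusted p = 0.165). With Y665H 0.0762% of all genes passed, and 3 members were at an unadjusted p under 0.05, beside 1981 of all 22313 genes. DESeq2, which called 0.847% of all genes, called Bcl2l1 alone (-0.97, adjusted p = 0.0323), which by edgeR came to -1.07 ± 0.27 (adjusted p = 0.171). Bcl2 differed by -0.16 ± 0.26 in Y665F and by -0.10 ± 0.26 in Y665H, and Mcl1 by -0.46 ± 0.21 and -0.51 ± 0.21. Both comparisons and that between the mutants share libraries.

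RLE size factors moved the median of all genes by 0.137 between Y665F and WT, and none of the 10 passed with them either. Cell markers went with the mutants. T cell markers summed to 1653 to 3585 CPM in Y665F and to 3674 to 4510 CPM in WT T cells, without overlap, 1 of the 12 was lower in Y665F than in WT and 2 lower than in Y665H, and Cd4 was lower than in WT by a log2 fold change of -1.16. Over all genes 1.87% passed against WT and 6.18% against Y665H. Of 11 neutrophil markers 5 were higher in Y665F than in WT T cells, with sums from 84.8 to 324 CPM against 10.8 to 21.6 CPM. Of 4 NK cell markers 3 were higher in Y665F than in Y665H T cells, with sums from 85.8 to 118 CPM against 18.3 to 44.1 CPM, and 5 of 10 B cell markers were higher, with sums from 24.8 to 837 CPM against 29.1 to 54.4 CPM. The part of these cells in the values was not tested. Without Y665F replicate 3, the library with the B cell and erythroid signal, Bcl2l1 came to 1.75 (adjusted p = 0.000481) and Bbc3 to -1.80 (adjusted p = 0.0481).

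In Y665F T cells 2 survival genes were higher with interleukins than without. The labels give a culture only for the cells with interleukins, so interleukins and time in culture cannot be told apart. Bcl2 was at 1973, 2344, 1589 and 1724 CPM with IL-2 and IL-7 and at 264, 925 and 409 CPM without, with no overlap and a wide spread among the latter. Its log2 fold change was 1.84 ± 0.30 (adjusted p = 0.00045). Bcl2l1 rose by 1.98 ± 0.29 (adjusted p = 0.000152), from 4.93, 9.16 and 6.24 CPM to 25.3 to 27.8 CPM. That was 2 of 10 where 3.85% of all genes passed. Of 4 NK cell markers 3 were higher with interleukins, with sums from 85.8 to 118 CPM against 30.3 to 37.7 CPM, as was 1 of 2 CD8 markers, with sums from 512 to 1198 CPM against 429 to 649 CPM, and 1 of 12 T cell markers was lower. Reads on no gene made up 67.6% to 84% with and 77.7% to 85.7% without interleukins. The part of these in the values was not tested.

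Mcl1 was at 1128 to 1904 CPM with interleukins and at 770, 1083 and 841 CPM without, a log2 fold change of 0.73 ± 0.23 (adjusted p = 0.0876). Bcl2l11 differed by 0.72 ± 0.22 (adjusted p = 0.0752) and Bak1 by 1.01 ± 0.37 (adjusted p = 0.149). These 3 passed as well, making 5 of 10, when Y665F replicate 3 with interleukins was left out (0.82, 0.81 and 1.19, adjusted p = 0.0432, 0.035 and 0.0481). Pmaip1, at 24.1, 30.4 and 26.3 CPM without interleukin, differed by -0.21 ± 0.27. In both conditions it lay above the 13.8 to 16.6 CPM of WT T cells with interleukins. WT T cells without interleukin were not sequenced, and with interleukins its difference from WT did not pass by edgeR. RLE size factors moved the median of all genes by -0.150 here and ended none of these 2 calls.

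Of the 16 further family genes, 15 were tested in the splenic T cells, and Bcl2a1a, a further A1 copy, was higher in Y665F than in Y665H T cells by 2.49 ± 0.66 (adjusted p = 0.0233). Cdkn1a was the only 1 of the 27 apoptosis genes to pass there, at 2.73 ± 0.51 (adjusted p = 0.0017). Over all genes 6.18% passed between these mutants. With interleukins against without, 3 of the 27 were higher in Y665F T cells, where 3.85% of all genes passed. Among them was E2f1, a cell cycle transcription factor, at 1.66 ± 0.45 (adjusted p = 0.0353). The medians of both lists lay between -0.22 and 0.27 in the 4 comparisons, those of all genes between -0.13 and 0.13.

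In unstimulated spleens, Bcl2 was higher in Y665F and lower in Y665H than in WT. It was at 219, 240, 191 and 216 CPM in WT, at 205, 152, 136, 161 and 161 CPM in Y665H, and from 266 to 323 CPM, with a median of 301, in the 7 Y665F spleens. Y665F spleens did not overlap with the others, and 1 Y665H spleen lay within the WT range. The log2 fold changes were 0.44 ± 0.09 for Y665F against WT (adjusted p = 0.00599), -0.41 ± 0.10 for Y665H against WT (adjusted p = 0.0078) and 0.85 ± 0.09 for Y665F against Y665H (adjusted p = 4.62e-06), each held in every fit that left out a library.

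T cell markers moved along with it. Their summed level ran from 816 to 965 CPM in WT, from 565 to 851 in Y665H and from 1060 to 1461 in Y665F spleens. All 12 were higher in Y665F than in Y665H, with a median log2 fold change of 0.98 against 0.85 for Bcl2, 8 were higher in Y665F and 7 lower in Y665H than in WT, and CD8 markers summed to 162 to 185, 76.4 to 108 and 199 to 304 CPM. Over all genes 25.8% passed between the mutants, 5.63% were higher in Y665F than in WT, and 9.05% were lower in Y665H than in WT. The part of the T cells in the Bcl2 values was not tested.

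Bcl2l1 went the other way in Y665H spleens. It was at 35.2, 32.3, 60.7 and 47.4 CPM in WT, at 45.6, 95.9, 158, 107 and 134 CPM in Y665H, and from 41.3 to 59.6 CPM, with a median of 46.3, in Y665F spleens. Replicate 1 of Y665H lay among the WT values and the other 4 above them all. Against WT the log2 fold change was 1.30 ± 0.26 in Y665H (adjusted p = 0.00329) and 0.19 ± 0.24 in Y665F (adjusted p = 0.65), and between the mutants it was -1.11 ± 0.22 (adjusted p = 0.00148).

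Erythroid markers separated the same spleens. The sum of the 8 erythroid genes in the files ran from 712 to 1574 CPM in WT and from 444 to 1462 CPM in Y665F, and was 761 CPM in Y665H replicate 1 and 3572 to 5090 CPM in the other 4 of Y665H. In Y665H against WT 4 of the 6 tested erythroid markers were higher and none lower, where 10.7% of all genes were higher. Their median log2 fold change was 1.88, and Hbb-bt was at 0 in every spleen. BCL-XL is known to keep red cell precursors alive as they mature, and the part of these cells in the Bcl2l1 values was not tested. Without replicate 1 of Y665H, Bcl2l1 came to 1.52 against WT (adjusted p = 2.86e-05).

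**Figure D4:**
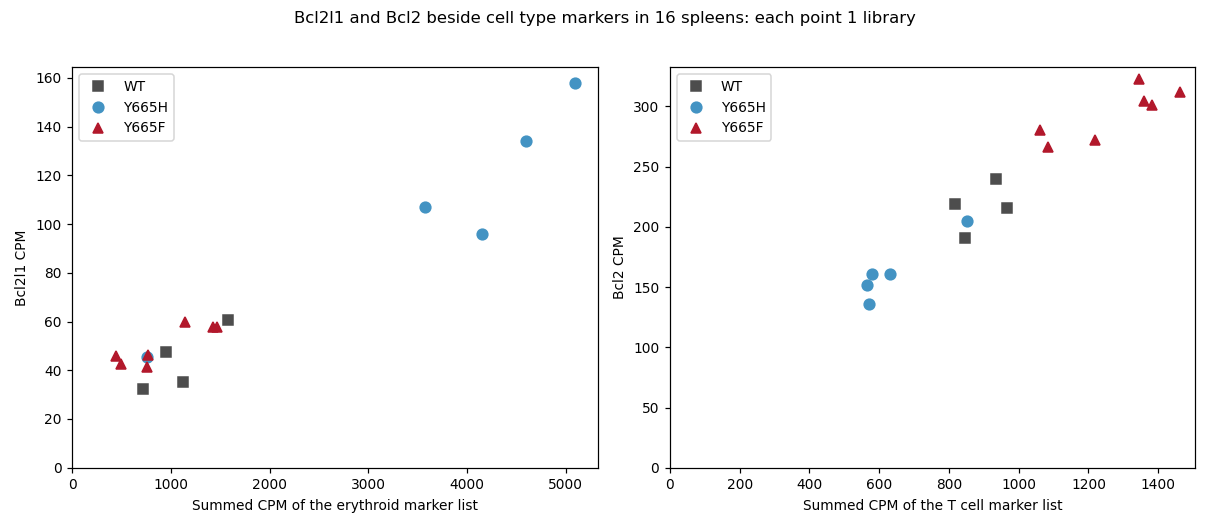
Bcl2l1 in CPM against the summed CPM of the erythroid marker list, and Bcl2 against that of the T cell list, with 1 point per library for 4 WT, 5 Y665H and 7 Y665F spleens. The 4 Y665H spleens with 95.9 to 158 CPM of Bcl2l1 are those with erythroid sums from 3572 CPM up, and the 3 groups have the same order of medians in Bcl2 as in T cell sums.

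Other survival genes were lower in Y665H spleens. Mcl1 was at 916, 955, 768 and 880 CPM in WT and at 717, 754, 686, 780 and 696 CPM in Y665H, with 1 WT spleen inside the Y665H range, and fell by 0.28 ± 0.07 on the log2 scale (adjusted p = 0.00747). Bcl2a1b fell by 0.46 ± 0.10 (adjusted p = 0.00559), from 46.4, 43.7, 39.3 and 45.1 CPM to 34.5, 29.5, 30.7, 35.6 and 28.1 CPM, and the 4 copies summed gave -0.46 (adjusted p = 0.00668). Bcl2a1d fell by 0.35 ± 0.12 (adjusted p = 0.0408) and the BH3-only gene Pmaip1 by 0.31 ± 0.10 (adjusted p = 0.0358).

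Altogether 6 of the 10 passed in Y665H against WT, 1 higher and 5 lower, where 19.8% of all genes passed, 10.7% higher and 9.05% lower, and Bcl2l1 alone beyond a log2 fold change of 1, where 4.37% did. Without WT replicate 2, 3 passed, and Mcl1 (-0.21, adjusted p = 0.0591), Bcl2a1d and Pmaip1 did not. Bcl2a1d was further lost without WT replicate 1 or 4 or Y665H replicate 2, 3 or 5 (adjusted p 0.0652 to 0.175), and Pmaip1 without WT replicate 1 or Y665H replicate 1, 3 or 5 (0.0649 to 0.119). Bax, at 0.47 ± 0.17 (adjusted p = 0.0683), passed without WT replicate 3 (0.61) or 4 (0.60), and Bak1, at 0.26 ± 0.11 (adjusted p = 0.122), without WT replicate 3 (0.34). Neutrophil markers, 9 of 11 higher in Y665H, summed to 226 to 349 CPM in WT and to 141 to 1610 CPM in Y665H, and 4 of 4 NK cell markers were lower, with sums from 25.4 to 42 CPM against 67.3 to 90.8 CPM. Of 10 B cell markers 4 were lower, with sums from 3328 to 4832 CPM against 4334 to 4983 CPM. The part of these cells was not tested.

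In Y665F against WT 4 of the 10 passed, all higher, where 12.2% of all genes passed, 5.63% higher and 6.59% lower. None of the 10 passed beyond a log2 fold change of 1, where 1.2% of all genes did. Beside Bcl2 these were the effector genes Bax, at 0.54 ± 0.16 (adjusted p = 0.0405), and Bak1, at 0.33 ± 0.11 (adjusted p = 0.0488), and Bcl2l11, at 0.21 ± 0.06 (adjusted p = 0.0344). Bcl2l11 was at 75.7, 80.6, 81.7 and 72 CPM in WT and from 85.8 to 92.9 CPM, with a median of 88.9, in Y665F spleens, so the groups did not overlap. Bax was at 11.9, 11.8, 21.5 and 21.4 CPM in WT and from 19.9 to 30.7 CPM, with a median of 23.8, in Y665F, and overlapped.

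Neutrophil markers, 6 of 11 higher in Y665F, summed to 416 to 1004 CPM there. Lower in Y665F were 3 of 10 B cell markers (sums from 3339 to 4163 CPM), 2 of 4 NK cell markers (22.7 to 68.6 CPM) and 3 of 8 macrophage markers (1227 to 1799 CPM against 1872 to 2287 CPM in WT), and the part of these cells was not tested. The Bcl2 call held in each of the 11 fits that left out a library, and it was the only one in 5 of them, those without WT replicate 1 (Bax 0.42, Bak1 0.31, Bcl2l11 0.20) or 2 (0.42, 0.24 and 0.23) or Y665F replicate 1 (0.52, 0.34 and 0.21), 5 (0.48, 0.32 and 0.22) or 7 (0.55, 0.36 and 0.22). Bcl2l11 was further lost without WT replicate 4 or Y665F replicate 6, and Bak1 without Y665F replicate 2 or 4, while Bbc3, at 0.66 ± 0.29 (adjusted p = 0.137), passed without Y665F replicate 2 (0.79).

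Between the mutant spleens 4 of the 10 passed where 25.8% of all genes did, which were Bcl2, Bcl2l1, Pmaip1 and Bcl2l11. Of these Bcl2l1 passed beyond a log2 fold change of 1, where 5.28% of all genes did. Pmaip1 was at 33.1, 39.6, 29.5, 34.7 and 28.4 CPM in Y665H and from 39.9 to 48.6 CPM, with a median of 47.1, in Y665F, and differed by 0.44 ± 0.09 (adjusted p = 0.00142). Bcl2l11 differed by 0.23 ± 0.06 (adjusted p = 0.00598), with 67.6 to 84.9 CPM in Y665H and no overlap with the 85.8 to 92.9 CPM of Y665F. Without Y665F replicate 2, Bcl2a1b (0.28), Bcl2a1d (0.26) and Bbc3 (0.81) passed too, which made 7. Bbc3 also passed without Y665H replicate 1 (0.82), and Mcl1 without Y665H replicate 4 (0.19) or Y665F replicate 1 (0.18).

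**Figure D5:**
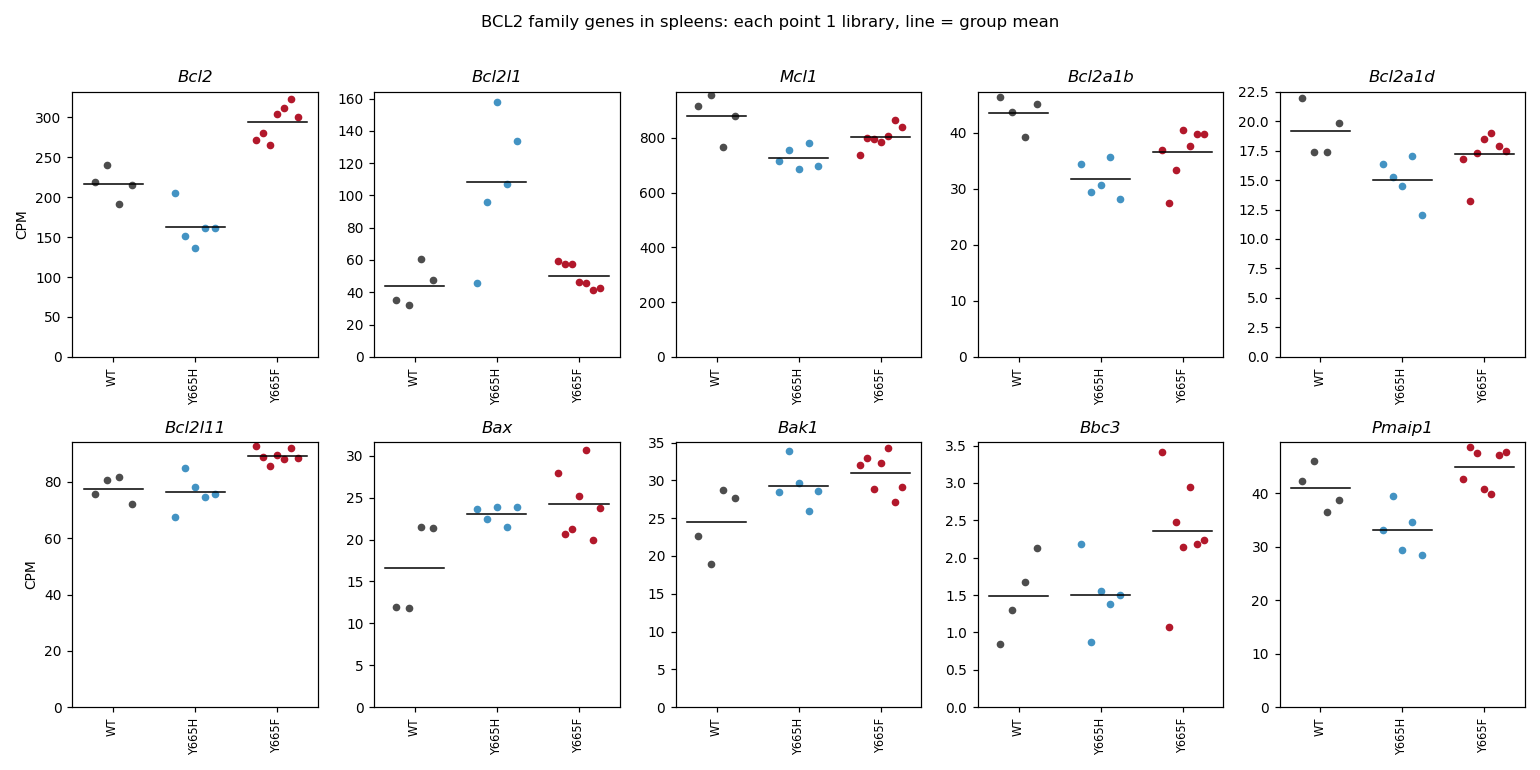
Levels of the 10 genes in unstimulated spleens in CPM on linear axes from 0, with 1 point per library and a line at the group mean, for 4 WT, 5 Y665H and 7 Y665F spleens. Bcl2 is highest in Y665F and lowest in Y665H, 4 of the 5 Y665H spleens lie above all others in Bcl2l1, and the group means of Mcl1 and the Bcl2a1 copies are highest in WT.

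Of the further BCL2 family genes, 15 were tested in spleens. In Y665H against WT 3 were higher and 1 lower, where 19.8% of all genes passed. Bcl2l13 was at 0.52 ± 0.12 (adjusted p = 0.00648) and Bcl2l15 at 0.91 ± 0.24 (adjusted p = 0.0114). In Y665F against WT none passed, where 12.2% of all genes did. Between the mutants 5 were lower in Y665F, where 25.8% of all genes passed, among them Bcl2l15 at -1.17 ± 0.20 (adjusted p = 0.000565). The medians over the list were 0.11, -0.10 and -0.14 in these comparisons, those of all genes from -0.01 to 0.00.

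Of the 27 apoptosis genes, 5 were higher and 5 lower in Y665H against WT, where 19.8% of all genes passed. E2f1 rose by 1.70 ± 0.21 (adjusted p = 0.000505), Foxo3, whose factor is known to switch on Bcl2l11 and Bbc3, by 1.09 ± 0.20 (adjusted p = 0.00208), and Trp73 by 1.30 ± 0.41 (adjusted p = 0.0314). In Y665F against WT 3 were higher, where 12.2% of all genes passed, with E2f1 at 0.96 ± 0.20 (adjusted p = 0.00496) and Trp53, the gene of p53, at 0.43 ± 0.10 (adjusted p = 0.0089). Between the mutants 5 were higher and 5 lower in Y665F, where 25.8% of all genes passed, led by Foxo1 at 0.61 ± 0.11 (adjusted p = 0.000873) and Cdkn1a at 0.82 ± 0.15 (adjusted p = 0.000887).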

How the data were processed

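Total RNA depleted of ribosomal RNA was sequenced in paired ends. According to the submitters' processing notes and the methods of the study, the authors trimmed reads with Trimmomatic 0.36, aligned them to mm10 with STAR and counted them per gene with HTSeq 0.9.1; FastQC 0.11.9, SAMtools 1.9 and Picard 2.9.2 are also named. The files were deposited as raw counts per gene symbol, without normalization. The last 5 lines of each file, which tally read pairs assigned to no gene (28.4% to 85.7% of all), entered neither the library sizes nor the tests. No pair of libraries was alike within sampling noise.

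Counts were fitted in R 4.3.3 with edgeR 4.0.16 (limma 3.58.1), apart for null CD4+, WT CD4+, both CD4+ backgrounds, splenic T cells and spleens, on genes with at least 10 reads over the libraries of a fit, with TMM factors, glmQLFit and glmQLFTest. Benjamini-Hochberg adjustment ran across every gene in a fit, and a gene passed at an adjusted p under 0.05. The study also asks for a log2 fold change beyond 1, which was counted as an alternative, and the factors of unwanted variation that it removed were not removed here. The SE was taken as |log2 fold change| over the root of the F statistic. Levels are given in CPM, after TMM adjustment of library sizes. Fits were tested on simulated data. The alternatives were DESeq2 1.42.0, RLE size factors, no filter, a replicate block, leaving out each library, a sum of the Bcl2a1 copies and, chosen after seeing the data, splenic T cell libraries of at least 5000000 reads.

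The members, the lists and the rule for naming genes were chosen with earlier results of these data known. Named were the 10 members and, of the 2 lists, genes that passed beyond a log2 fold change of 1 or, where none did, up to 2 with the smallest adjusted p; some genes that this rule takes are not reported here. Same-numbered null libraries correlated above 0.1 in 30 of 30 pairs in their deviations from the group means (median 0.464), so the numbers were taken as pairing them; the pairing comes from the data, not from the labels. Positions, exon lengths and transcripts are those of GENCODE M21 on GRCm38.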

Additional observations from a re-analysis of the deposited data

Results flagged for a closer look

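In 60 combinations of a member and a group of 4 to 7 libraries, 2 libraries lay far from the rest of their group, where chance alone flags about 1 group in 20. Bcl2 was at 2228 CPM in replicate 3 of Y665H T cells with interleukins, against 1922 CPM for the nearest of the other 3, and this library held 15896125 reads, the most of its group. Bcl2a1d was at 13.2 CPM in Y665F spleen replicate 2, against 16.8 CPM for the nearest of the other 6. Without that spleen, 7 members in place of 4 passed between Y665F and Y665H spleens.

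The response of Bcl2 to Y665F differed between the backgrounds, by 1.28 ± 0.29 on the log2 scale (interaction contrast in edgeR, adjusted p = 0.0324). Bcl2 rose from 130 to 157 CPM with EV to 276 to 379 CPM with Y665F in null cells (3 of 3 libraries above all EV libraries), and ran from 339 to 487 CPM with EV and from 289 to 473 CPM with Y665F in WT cells. The call was lost in 9 of the 12 fits that left out a library.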

How the results depend on the processing

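Of 2572 values of single members under the alternatives, 2303 kept their direction and side of the threshold, 72 came to pass, 73 no longer passed, 124 that never passed moved, and 0 values that passed reversed. The counts below are of the 10 members that passed; where a comparison is not named, its count stayed within 1.5 times. The causes of the moves were not tested.

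With a log2 fold change beyond 1 asked for as well, counts fell in null cells against EV to 0 for STAT5B, 1 for N642H and 1 for Y665F, and in spleens to 0 for Y665F against WT, 1 for Y665H against WT and 1 between the mutants. DESeq2 called 2 for null STAT5B and 6 for null against WT cells with EV, and 1 each for null Y665H against STAT5B, WT N642H, WT Y665F, null STAT5B against WT EV and the N642H interaction. In splenic T cells it called 3 for Y665F and 1 for Y665H against WT. It also called more of all genes than edgeR, for instance 29.7% against 13.9% between null and WT cells with EV and 11.1% against 1.87% between Y665F and WT T cells. RLE size factors gave 1 for null STAT5B against WT EV and 1 for the N642H interaction. Libraries of at least 5000000 reads gave 1 for Y665F against Y665H T cells and 5 for the interleukin comparison. No filter on low counts moved no count by over 1.5 times.

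With the replicate block, counts were 4 for null STAT5B against EV and 1 for null Y665H against STAT5B. WT libraries shared a number without pairing in full: 29 of 30 same-numbered pairs correlated above 0.1 (median 0.674) and 14 of 15 libraries correlated best with their own number. The block gave 5 for WT N642H and 3 for WT Y665F against EV, where 8.28% and 12% of all genes passed. Bcl2l11 was at -1.40 and -1.45 there (adjusted p = 1.61e-05 and 1.35e-05). For the N642H and Y665F interactions the block gave 2 each, where 4.36% and 4.11% of all genes passed. In splenic T cells 6 of 21 and in spleens 4 of 13 such pairs correlated above 0.1, with 0 of 15 and 2 of 16 libraries best with their own number, and the block gave 1 for Y665F against Y665H T cells and 0 for Y665F against WT spleens. The block changed further single calls but no other count by over 1.5 times, and no blocked value exists for null against WT EV cells or null STAT5B against WT EV.

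Leaving out each library in turn gave these ranges of counts: 0 to 2 for null STAT5B against EV, 0 to 1 for WT N642H and 0 to 1 for WT Y665F against EV, 2 to 5 for null against WT EV, 0 to 1 for null STAT5B against WT EV, 0 to 1 for the N642H and 0 to 1 for the Y665F interaction, 1 to 3 for Y665F against Y665H T cells, 2 to 5 for interleukins, and, in spleens, 1 to 4 for Y665F against WT, 3 to 8 for Y665H against WT and 4 to 7 between the mutants. A design of 3 libraries a group and, in splenic T cells, depths down to 2017012 reads limit the power to pass, and Bbc3 and Bcl2l1 there rest on as few as 3 and 12 reads.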

Other observations

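Bcl2 shared its pattern over the 10 CD4+ group means most closely with Nav1, which encodes a microtubule-binding protein, at a Pearson r of 0.996 of log2(CPM + 1), then with Kcnk5, a potassium channel gene (0.995), and 6430571L13Rik (0.994), among 8806 genes whose mean level was 10 CPM or more. For Bcl2l1 the closest gene was Wdr77 (0.989), for Mcl1 Bcor (0.994), for Bcl2a1b Wisp1 (0.996) and for Bcl2l11 Syne2 (0.988). Bbc3 ran closest to Atf5 (0.989), a gene of the amino acid stress response. These values are over 10 points that share libraries and are the best of many genes, and they describe likeness only.

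The motif TTCNNNGAA, the core that STAT5 is known to bind and the same on both strands, was in none of 14 promoters of 9 members (0%), stretches of 300 bases around each start from RefSeq on GRCm38.p6, against 8.3% of 32851 promoters, and Pmaip1 had no entry. This says only that these letters are not in these windows.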
